A study of Mus musculus with 8 samples.

Results

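Serpins are a family of proteins named for their best-known members, the inhibitors of serine proteases. They were followed here in mouse gallbladder as 55 probe sets for 39 genes, out of 45037 probe sets and 18193 genes with a probe set of their own on the array. A probe set was a member when its only annotated gene symbol began with Serpin, apart from 1 further Serpin gene that the rule leaves out. An inhibitory serpin offers the protease a flexible loop as bait. Once cut, the loop folds into the body of the serpin and carries the trapped protease with it, so both proteins are spent. The letter in a member's name is its clade. Clade A members are mostly secreted proteins of the blood made by the liver, and clade B members mostly stay inside epithelial and blood cells. The other clades hold the clotting inhibitor antithrombin (C), heparin cofactor II (D), antiplasmin and pigment epithelium-derived factor (F), the collagen chaperone Hsp47 (H) and neuroserpin (I).

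The leptin group was given recombinant mouse leptin into the peritoneum every day for 4 weeks, at 5 µg per g body weight, and the saline group was given saline in the same way. Every mouse was a female of strain B6.V-Lep ob, which carries the obese mutation of the leptin gene, so the saline mice also lack functional leptin. All mice arrived at 7 weeks of age, and after 1 week of acclimation the injections began. Gallbladders were taken after an overnight fast at 12 weeks. Each group had 12 mice, and RNA was taken from pools of 3 gallbladders, so there were 4 leptin pools (numbered 5 to 8) and 4 saline pools (1 to 4), each on 1 array. No number is shared between the groups, and a pool hides the spread between its 3 mice.

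Signals are MAS 5.0 intensities as the authors deposited them, in arbitrary units on a linear scale. Log2 fold changes are leptin minus saline on the scale log2(signal + 8.2), with their standard error (SE), and adjusted p-values are from limma with Benjamini-Hochberg adjustment over 22519 tested probe sets. A change is called where the adjusted p is under 0.05. A gene is read from its brightest probe set. Signals of different probe sets cannot be set against each other, so levels are compared only between pools.

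The median signal of an array was 94.0 to 107 in leptin pools and 77.8 to 87.3 in saline pools. Markers of the gallbladder lining were present: all 9 measured of 10 listed epithelial genes were tested, with summed signals of 27982 to 31883 in leptin pools and 34901 to 43706 in saline pools. All 11 listed hepatocyte genes were also measured and tested, with 0 called. Their sums were 113298 to 135763 in leptin pools and 97650 to 149025 in saline pools. Leptin 7 and saline 1 had the lowest hepatocyte sums of their groups. Macrophage markers rose in 7 of 7 tested cases, neutrophil markers in 4 of 5 and B and plasma cell markers in 3 of 3. Fibroblast markers rose in 1 of 5, and 3 of 9 epithelial and 1 of 6 smooth muscle markers fell. Of all 11719 tested genes, 4.29% rose and 3.98% fell. None of 4 adipocyte, 3 mesothelial, 3 endothelial and 1 pancreatic acinar markers tested was called. In RNA of a whole organ, fewer cells of a type and less RNA per cell cannot be told apart.

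Of the 39 Serpin genes, 22 had a brightest probe set bright enough to be tested. One of them rose with leptin, Serpina3n, and 1 fell, Serpinb6b, while 20 were not called. That is 9.09% of the tested Serpin genes, against 8.27% of all 11719 tested genes, of which 4.29% rose and 3.98% fell. The median log2 fold change of the 22 genes was -0.023, and that of all tested genes was 0.020. Of the 1561 probe sets called in all, 798 were higher and 763 lower with leptin. Median centring over all probe sets moved the median log2 fold change by -0.25 and turned that split to 406 higher and 3586 lower, with 7 Serpin genes called, all lower. Among probe sets, 2 of 29 tested members were called, against 6.93% of all tested probe sets. The 4 leptin pools all lay outside the range of the 4 saline pools for 3 of the 22 genes, or 13.6%, against 17% of all tested genes. All 3 were clade B genes and lower with leptin, a direction found in 8.58% of all tested genes. Before adjustment, 10 of the 22 genes had p under 0.05, or 45.5%, against 25.5% of all tested genes.

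**Figure D1:**
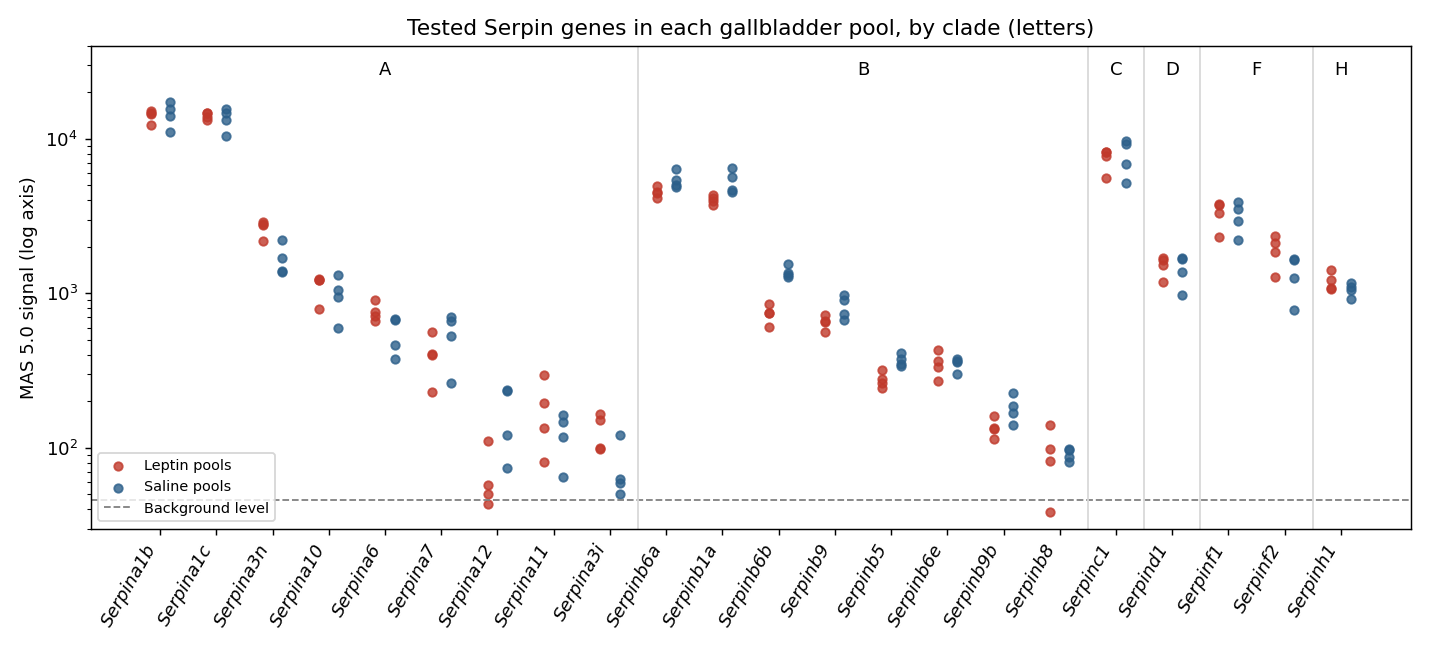
Signal of each tested Serpin gene (log axis, arbitrary units) in the 4 leptin pools (red) and the 4 saline pools (blue), grouped by clade letter, with the background level of 46 as a dashed line. Points compare pools within a gene, not genes with each other; the leptin pools of Serpinb6b lie between 604 and 856, all under the saline pools at 1282 to 1552.

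Serpina3n is 1 of several mouse counterparts of human alpha-1-antichymotrypsin, an acute phase inhibitor of leukocyte proteases. Its neighbours on chromosome 12 include Serpina3i. The stretches upstream of these 2 genes are shown because Serpina3n is the called gene of the Serpina3 group and both genes had higher mean signals in leptin pools. Both come from RefSeq on GRCm38.p6, plus strand, 5′ to 3′, and end at the base before the gene as annotated. The table places the start of 1 transcript of each gene further on, inside the annotated gene, and motifs were searched in the 250 bases before that start, so the printed stretch is the outer part of that window. Serpina3i lies at chr12:104262872-104263044 and Serpina3n at chr12:104406458-104406645. Leptin receptor signalling acts largely through the transcription factor STAT3, and the letters TTCNNNGAA, which read the same on both strands, are the usual STAT-type motif. Capitals mark this motif in Serpina3i and the 9 bases that align to it in Serpina3n.
Serpina3n: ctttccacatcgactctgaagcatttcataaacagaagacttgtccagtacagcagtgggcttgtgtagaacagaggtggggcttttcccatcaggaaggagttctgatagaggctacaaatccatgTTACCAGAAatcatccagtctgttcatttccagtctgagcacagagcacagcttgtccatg
Serpina3i: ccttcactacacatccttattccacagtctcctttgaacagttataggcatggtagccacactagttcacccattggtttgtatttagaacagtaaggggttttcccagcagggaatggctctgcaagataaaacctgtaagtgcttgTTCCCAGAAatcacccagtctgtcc

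The best local alignment of the 2 stretches covered 80 bases, 82.5% of them identical. In the capitals the Serpina3n bases differed by 1 substitution, C3A, counted from 1 at the 5′ end of the 9 bases with the Serpina3i base first. The motif was therefore not found in the printed Serpina3n stretch, and nor was it in the whole window of 250 bases. Among the 19 tested Serpin genes with such a window, 3 held it, Serpina3i, Serpina11 and Serpinb6a. By gene that was 3 of 19, against 2197 of 27025 genes with a window, and none of the 3 genes was called. By window, where a gene can count more than once, it was 18.2% of 22, against 7.02% of 32851 windows of all genes. A match of these letters is a description and not a binding site.

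Serpina3n had signals of 2764, 2908, 2197 and 2826 in leptin pools 5 to 8, against 1382, 1385, 2223 and 1688 in saline pools 1 to 4. All leptin pools but leptin 7 lay above every saline pool, and leptin 7 lay just under saline 3. The mean was 2674 ± 323 in leptin pools and 1669 ± 396 in saline pools (SD, n = 4 each), a log2 fold change of 0.70 ± 0.15 (SE, limma adjusted p = 0.0180), or 1.62-fold. The call was lost without leptin 6 (adjusted p = 0.0594), leptin 8 (0.0523) or saline 2 (0.0586), where the log2 fold change was between 0.62 and 0.67. It was also lost under median centring (0.45 ± 0.16, adjusted p = 0.0687), without the mean-variance trend (adjusted p = 0.0579) and, at the highest p, with the actin 3′ to 5′ ratio, a measure of RNA quality, as a covariate (0.45 ± 0.21, adjusted p = 0.280). The actin ratio itself was 1.67 to 2.17 in leptin pools and 1.498 to 1.683 in saline pools. Its groups overlapped through leptin 7 and saline 3 alone, so this covariate and the treatment can hardly be told apart. The Gapdh 3′ to 5′ ratio, a second measure of this kind, was 0.791 to 0.846 in leptin pools and 0.774 to 0.870 in saline pools. It was not used as a covariate. With the hepatocyte marker level as a covariate, added after the data were seen, the log2 fold change was 0.67 ± 0.13 (adjusted p = 0.0059).

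Serpina3i read 151, 98.1, 164.5 and 99.7 in leptin pools, against 59.2, 62.6, 120.4 and 50.4 in saline pools. The groups overlapped through saline 3 alone. Its log2 fold change was 0.78 ± 0.30, and it was not called (adjusted p = 0.139). The Serpina3 genes are near copies of each other, so a probe set may also pick up a neighbour.

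**Figure D2:**
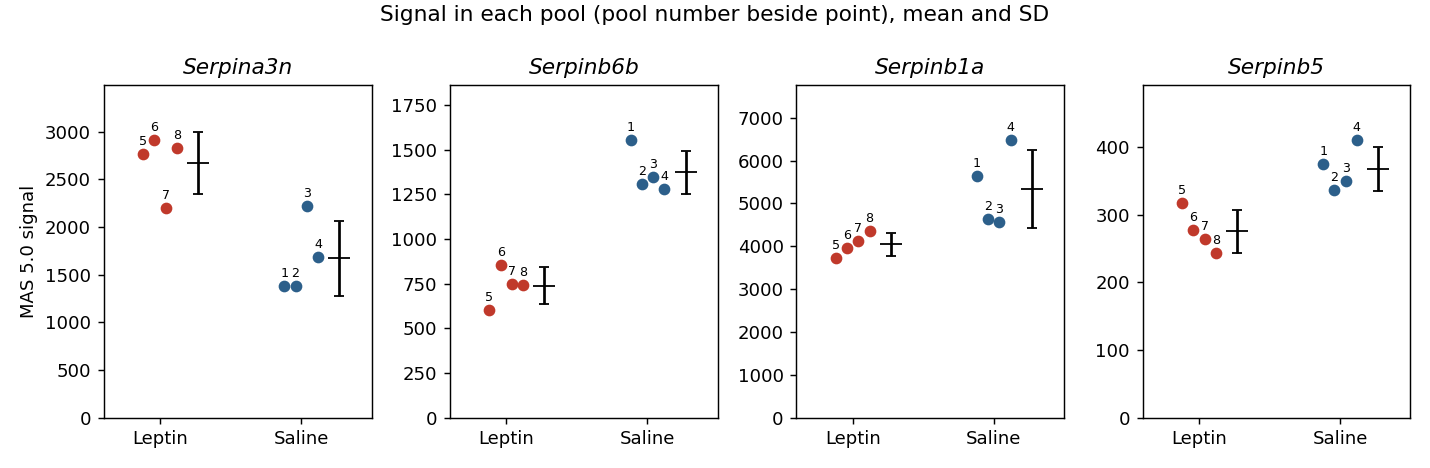
Signal (arbitrary units, axis from 0) of Serpina3n, Serpinb6b, Serpinb1a and Serpinb5 in each leptin pool (left, red) and saline pool (right, blue), with pool numbers beside the points and the mean and SD of each group in black (n = 4). Serpina3n is higher in leptin pools with an overlap between leptin 7 and saline 3; the other 3 genes are lower in every leptin pool than in every saline pool, and of them Serpinb6b alone was called.

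Of the 9 tested clade A genes, 6 had a log2 fold change above 0 and 3 below, with Serpina3n alone called. Under median centring of the arrays over all probe sets, 4 were above 0 and 5 below, and with the actin ratio as a covariate 3 were above and 6 below, the median being -0.30 in that fit and 0.22 without it. Alpha-1-antitrypsin, the blood's main brake on neutrophil elastase, comes from several near-identical mouse genes that share probe sequence, so the member named is uncertain. Serpina1b read 14720.3, 14522, 12364 and 15068 in leptin pools, against 11039.8, 15601, 17451 and 14094 in saline pools. The leptin pools all lay within the range of the saline pools. The log2 fold change was -0.022 ± 0.13 (adjusted p = 0.939), with the sign turned under quantile and loess scaling, and a second probe set gave -0.0025 ± 0.11. Serpina1c was at 0.079 ± 0.12 (adjusted p = 0.729), with the sign turned under both median centrings. The probe sets shared by several Serpina1 genes, which are no members, were not called either: the one for Serpina1d and Serpina1a was at 0.29 ± 0.12 (adjusted p = 0.161).

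Among the hormone carriers, which bind steroids or thyroid hormone and trap no protease, corticosteroid-binding globulin (Serpina6) read 908, 759, 658 and 718 in leptin pools, against 375, 677, 682 and 465 in saline pools. Leptin 7 lay under 2 saline pools. Its log2 fold change was 0.50 ± 0.19 and it was not called (adjusted p = 0.136). It was 0.25 under median centring, 0.33 without saline 1 and 0.0034 ± 0.22 with the actin covariate (adjusted p = 0.996). Thyroxine-binding globulin (Serpina7) averaged 400.2 ± 136 in leptin pools and 541 ± 199 in saline pools (SD, n = 4 each), at -0.40 ± 0.30 (adjusted p = 0.454). It was at -0.17 without leptin 7, -0.25 without saline 3 and -0.71 without saline 1, and at -0.65 under median centring and -0.99 with the actin covariate, not called in any of these. Serpina10, a cofactor-dependent inhibitor of clotting factor Xa, was at 0.22 ± 0.22 (adjusted p = 0.590), below 0 under median centring, and Serpina11 at 0.42 ± 0.36 (adjusted p = 0.515).

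Serpina12 (vaspin), known as a product of fat tissue, had the lowest log2 fold change of the 22 genes. Its signals were 111, 43.0, 57.0 and 50.3 in leptin pools, against 74.2, 235, 234 and 120.5 in saline pools, and leptin 6 was under background. Leptin 5 overlapped saline 1. At -1.19 ± 0.38 it was not called (adjusted p = 0.0809), but it passed in 8 of 22 other settings, among them without saline 1 (adjusted p = 0.0316). Its second probe set was under background in all 8 pools. The 4 measured adipocyte markers summed to 3135 to 5449 in leptin pools and 3066 to 11092 in saline pools. Saline 1 had the highest of these sums but the lowest Serpina12 signal of the saline pools. Leptin 7 had the highest sum of the leptin pools, with Serpina12 at 57.0, and leptin 6 was the lowest leptin pool in both. The part of these markers in this result was not tested.

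None of the 4 tested serpins of clades C, D and F was called, and with the actin covariate all 4 were below 0. Antithrombin (Serpinc1), the main inhibitor of thrombin, read 8264, 7709, 5554 and 8212 in leptin pools, against 5176, 9672, 9230.3 and 6877 in saline pools. Every leptin pool lay inside the saline range, and the log2 fold change was -0.032 ± 0.19 (adjusted p = 0.939), above 0 under quantile and loess scaling. Heparin cofactor II (Serpind1), a second thrombin inhibitor, read 1689, 1517, 1176 and 1655 in leptin pools, against 972, 1669.8, 1696 and 1381 in saline pools, at 0.097 ± 0.18 (adjusted p = 0.784), below 0 under median centring. Alpha-2-antiplasmin (Serpinf2), which stops plasmin, read 2353, 1860.0, 1276 and 2127 in leptin pools, against 775, 1641, 1675 and 1257 in saline pools. All leptin pools but leptin 7 lay above every saline pool. Its log2 fold change was 0.53 ± 0.24 (adjusted p = 0.195). With the hepatocyte marker level as a covariate it was 0.47 ± 0.097 (adjusted p = 0.0102), and with the actin ratio as a covariate the sign turned (-0.19 ± 0.23, adjusted p = 0.704).

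Pigment epithelium-derived factor (Serpinf1), a secreted serpin that restrains vessel growth and inhibits no protease, read 3710.0, 3338, 2332 and 3775 in leptin pools, against 2201, 3529, 3899 and 2957 in saline pools. Its log2 fold change was 0.071 ± 0.18 (adjusted p = 0.856), below 0 under both median centrings, and its second probe set gave -0.065 ± 0.23.

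These genes varied together between pools of the same group. Of the 13 tested genes of clades A, C, D and F, 11 were lowest in leptin 7 among leptin pools and 12 were lowest in saline 1 among saline pools, with 11 lowest in both. Leptin 7 and saline 1 also had the lowest hepatocyte marker levels of their groups, at 0.26 and 0.37 below the group mean on the log2 scale. The 13 genes had a median deviation of -0.34 in leptin 7 and -0.52 in saline 1. None of the 8 tested clade B genes was lowest in leptin 7 and 1 was lowest in saline 1, with medians of 0.15 and 0.065. This is a description of these 8 pools, and the part of liver RNA in it was not tested.

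**Figure D3:**
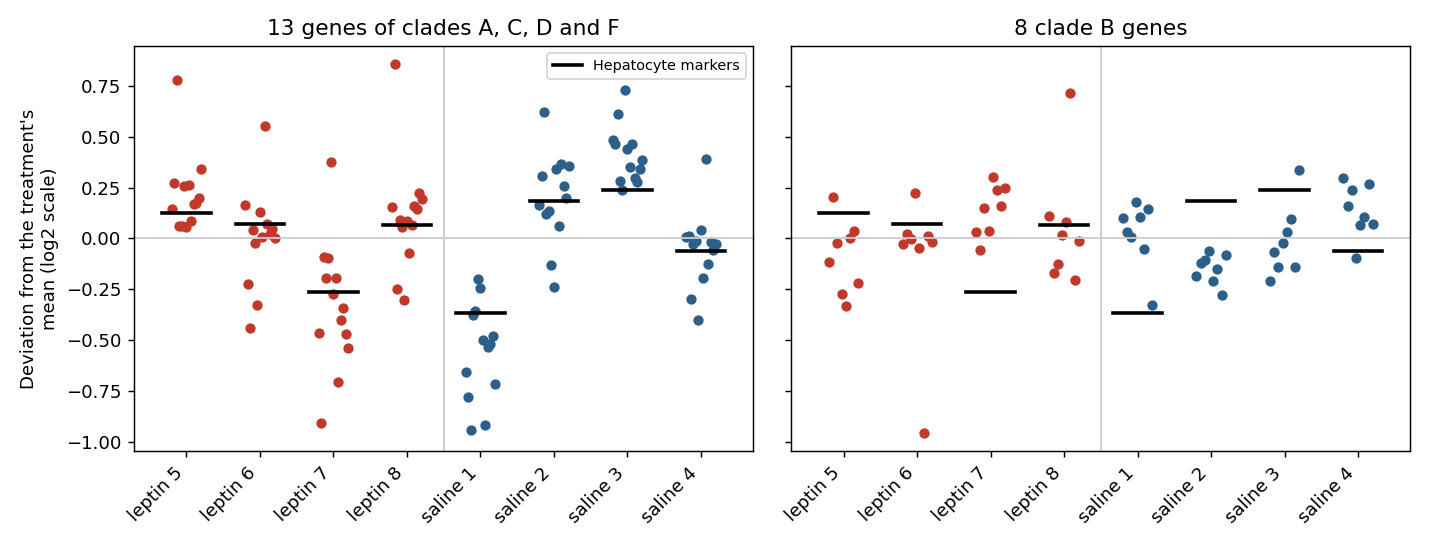
Deviation of each tested gene from the mean of its own group (log2 scale) in each leptin pool (red) and saline pool (blue), for the 13 genes of clades A, C, D and F (left) and the 8 of clade B (right), with 1 point per gene. The black bar is the mean of 11 hepatocyte markers; the left panel's points lie mostly below 0 in leptin 7 and saline 1, as the bar does, and those on the right do not.

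With the hepatocyte marker level as a covariate, 6 of the 22 genes were called, against 2 without it. Serpina3n, Serpina6 and Serpinf2 rose and Serpina12, Serpinb1a and Serpinb6b fell in that fit. Serpina6 was at 0.45 ± 0.12 (adjusted p = 0.0356), Serpina12 at -1.26 ± 0.31 (0.0228) and Serpinb1a at -0.37 ± 0.10 (0.0373). With the actin ratio as the covariate instead, Serpina12 was the only gene called (adjusted p = 0.0265), with Serpina6 at 0.0034 and Serpinb1a at -0.18 (adjusted p = 0.592). By probe set 2 members were called in that fit, both lower, the other being a dimmer probe set of its gene. Over all tested probe sets the fit with the hepatocyte covariate called 2176 and that with the actin ratio 654, against 1561 without a covariate.

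In clade B, all 8 tested genes had a log2 fold change below 0, with a median of -0.35, but Serpinb6b alone was called. The median was 0.020 for all tested genes and -0.050 for probe sets at or above the 75th percentile of brightness. That stricter filter kept 6 of the clade B genes, with a median of -0.36. All 8 tested clade B genes were also below 0 under quantile and loess scaling. The other scalings could not have turned a sign to above 0. The 2 median centrings move every gene further down, by -0.25 and -0.082, and the deposited arrays already shared 1 trimmed mean. With the actin covariate the clade B median was -0.16 and 0 of the 8 were called. Serpinb6e was above 0 with array weights, with the actin covariate and without leptin 5 or saline 1, and Serpinb8 without leptin 6. A dimmer tested probe set of Serpinb5 was above 0, at 0.48 ± 0.34. So was a tested probe set shared by Serpinb9e, Serpinb9f, Serpinb9g and Serpinb9h, which is no member (0.11 ± 0.18, limma adjusted p = 0.753). In 3 of the 8 genes the groups did not overlap, or 37.5%, against 17% of all tested genes in either direction and 8.58% with leptin lower. The shared direction held for the tested genes only. Of the 10 clade B genes too dim to be tested, Serpinb6c alone was below 0 when fitted without the filter on dim probe sets. In that fit the untested probe sets of Serpinb5 and Serpinb8 were at 0.34 ± 0.46 and 0.47 ± 0.42. None of these dim probe sets was called. Dim probe sets lay higher in general, with a median log2 fold change of 0.12 over all probe sets, against 0.039 over the tested ones.

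Serpinb6b is a mouse paralog of Serpinb6a, an inhibitor of the neutrophil protease cathepsin G. It read 604, 856, 751 and 741 in leptin pools, against 1552, 1309, 1347 and 1282 in saline pools. Every leptin pool lay well under every saline pool. The mean was 738 ± 104 in leptin pools and 1373 ± 122 in saline pools (SD, n = 4 each), a log2 fold change of -0.90 ± 0.13 (SE, limma adjusted p = 0.0012), or 0.538-fold. It was called without each single pool in turn (adjusted p up to 0.0053). With the actin covariate it was at -0.67 ± 0.17 and not called (adjusted p = 0.0562).

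None of its paralogs was called. Serpinb6a, which is made in many cell types, read 4435, 4501, 4990.5 and 4134 in leptin pools, against 5433, 5024, 4891 and 6365 in saline pools. Leptin 7 alone reached into the saline range, and the log2 fold change was -0.26 ± 0.11 (adjusted p = 0.157). Serpinb6e averaged 349 ± 64.4 in leptin pools and 352 ± 33.7 in saline pools (SD, n = 4 each), at -0.023 ± 0.16 (adjusted p = 0.948). The probe set of Serpinb6c was too dim to be tested, with 87.8, 31.1, 28.8 and 91.0 in leptin pools, against 113, 122, 94.1 and 119.6 in saline pools. These groups did not overlap, and 2 of the leptin values were under background. Without the filter on dim probe sets its log2 fold change was -0.97 ± 0.38 (adjusted p = 0.228). The probe sets of Serpinb6e and Serpinb6c carry suffixes for sequence shared with other transcripts.

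Serpinb1a, the leukocyte elastase inhibitor that guards cells against neutrophil proteases, read 3729, 3966, 4131 and 4357 in leptin pools, against 5649, 4639, 4558 and 6471 in saline pools. The groups did not overlap, but the log2 fold change of -0.38 ± 0.12 was not called (adjusted p = 0.0734). A second probe set gave -0.34 ± 0.16. Serpinb5 (maspin), an epithelial serpin not known to inhibit proteases, had 317, 278, 264 and 243 in leptin pools, against 375, 336, 350.0 and 410.1 in saline pools. These groups did not overlap either, at -0.41 ± 0.14 (adjusted p = 0.0987). Its 2 dimmer tested probe sets disagreed, at -0.017 ± 0.22 and 0.48 ± 0.34.

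Serpinb9, which blocks granzyme B, the killing protease of cytotoxic lymphocytes, averaged 649.6 ± 67.4 in leptin pools and 823 ± 143 in saline pools (SD, n = 4 each), at -0.33 ± 0.14 (adjusted p = 0.189). Serpinb9b was at -0.37 ± 0.20 (adjusted p = 0.275) and Serpinb8 at -0.13 ± 0.33 (adjusted p = 0.855). Of the epithelial marker list, Krt7, Krt8 and Krt18, keratins of simple epithelium, fell, at -0.96 ± 0.16, -0.58 ± 0.10 and -0.35 ± 0.089 (adjusted p = 0.0041, 0.0051 and 0.0350). Over all tested genes 3.98% fell. Of the epithelial list 2 genes were called lower under quantile scaling, 5 under median centring and 4 with the hepatocyte covariate. With the actin covariate 0 were called lower and 1 higher. The list median was -0.17. Not called were Krt19 (-0.40), Cdh1 (-0.17), Cftr (-0.12), Sox17 (-0.069), Epcam (-0.0062) and, above 0, Slc10a2 (0.30). The summed epithelial markers of the 2 groups did not overlap, but bright probe sets, such as those of Krt8 and Krt18, weigh most in that sum. The part of these markers in the clade B values was not tested.

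Serpinh1 (Hsp47), a serpin that folds collagen in the endoplasmic reticulum and inhibits no protease, had 1220.1, 1083, 1418 and 1073 in leptin pools, against 916, 1045, 1174 and 1101 in saline pools. Leptin 7 and leptin 5 lay above all saline pools and the other leptin pools among them. The log2 fold change was 0.17 ± 0.13 (adjusted p = 0.435), below 0 under median centring, and a second probe set gave 0.21 ± 0.15. Of 19 tested collagens and collagen-folding partners, Col6a2 rose (0.45 ± 0.13, adjusted p = 0.0484) and the basement membrane collagen gene Col4a1 fell (-0.46 ± 0.096, adjusted p = 0.0126), with a list median of 0.084. Of all tested genes 4.29% rose and 3.98% fell. With the actin covariate 0 of the 19 were called, and under median centring 0 higher and 6 lower.

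**Figure D4:**
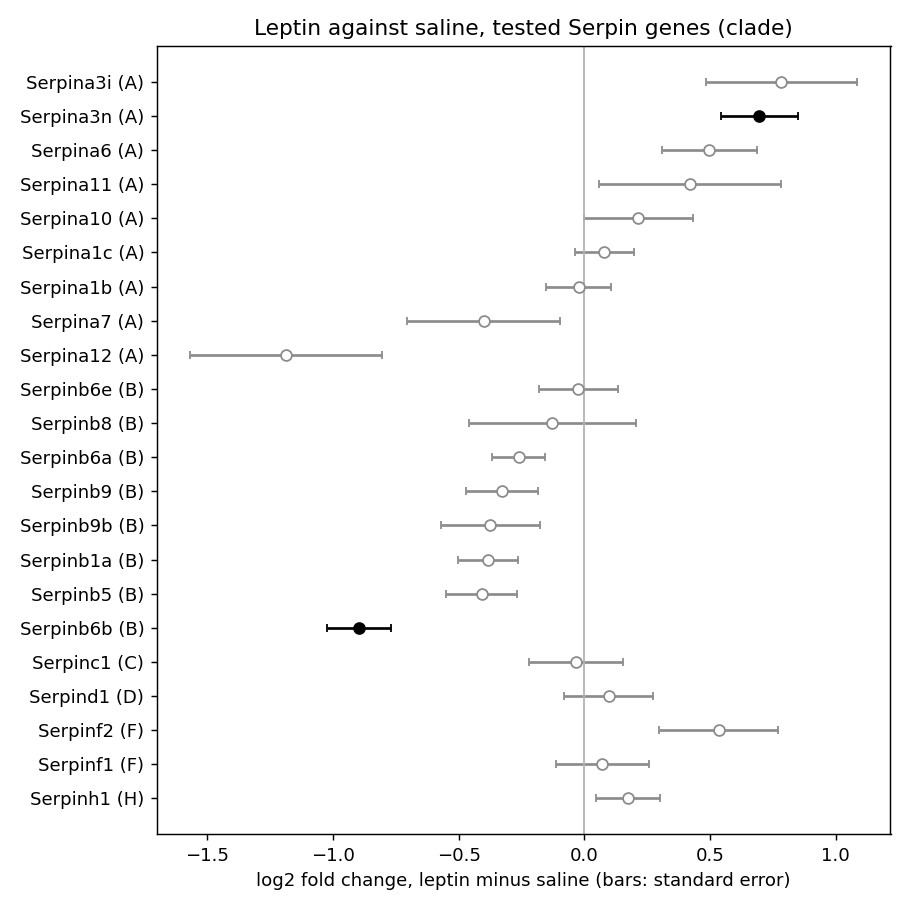
Log2 fold change, leptin minus saline, of the 22 tested Serpin genes with standard errors as bars, ordered by clade (n = 4 pools each). Filled points are the called genes Serpina3n (0.70) and Serpinb6b (-0.90); the 8 clade B points all lie at or left of -0.023.

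Genes with no tested probe set numbered 17. They were Serpina1f, Serpina3a, Serpina4-ps1, Serpina5 and Serpina9 of clade A, Serpinb1b, Serpinb2, Serpinb3a, Serpinb6c, Serpinb7, Serpinb9c, Serpinb9d, Serpinb9g, Serpinb11 and Serpinb12 of clade B, and Serpini1 and Serpini2 of clade I. With the dimmer probe sets of tested genes, 26 member probe sets were not tested, with signals between 1.2 and 162. Of these, 9 were under background in all 8 pools, and 0 were above it in all 8. Fitted without the filter on dim probe sets, 0 of the 26 were called by limma, and 2 had an unadjusted p under 0.05, those of Serpinb2 and Serpinb6c. Serpinb2, plasminogen activator inhibitor 2, read 82.2, 116.7, 48.0 and 87.2 in leptin pools, against 12.0, 14.1, 54.6 and 31.3 in saline pools. Leptin 7 overlapped saline 3, and 3 of the saline values were under background. Its log2 fold change was 1.44 ± 0.45 without the filter (adjusted p = 0.128).

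The proteases that serpins meet, and their partners, were read from lists. In the plasminogen system 2 of 8 tested genes fell and 0 rose: Anxa2 and S100a10, which together hold plasminogen on the cell surface, at -0.53 ± 0.13 and -0.54 ± 0.13 (adjusted p = 0.0304 and 0.0259). Over all tested genes 3.98% fell. The list median was -0.13, and 0 genes of the list were called under quantile scaling or with the actin covariate. Of 22 clotting genes, F3 alone was called. This gene of tissue factor, the trigger of clotting, fell to 481 ± 30.3 in leptin pools, against 1140.3 ± 302 in saline pools (SD, n = 4 each), by -1.20 ± 0.17 on the log2 scale (adjusted p = 0.0013), and the groups did not overlap. The median of the list was 0.025.

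Leukocyte proteases were mostly dim, and 5 of 14 measured were tested. The mast cell chymase gene Cma1 rose (0.63 ± 0.18, adjusted p = 0.0482), with a list median of 0.40. No gene of this list was called under quantile scaling, median centring or the actin covariate. Of 9 cysteine cathepsins, which several clade B serpins can bind, 3 rose and 0 fell, with a median of 0.17. Ctss of antigen-presenting cells rose to 2506 ± 532 in leptin pools, against 856 ± 168 in saline pools (SD, n = 4 each), at 1.54 ± 0.17 (adjusted p = 2.1e-04). Ctsk, a collagen-cutting cathepsin, rose by 1.15 ± 0.22 (adjusted p = 0.0079) and Ctsc, which activates granule proteases, by 0.35 ± 0.090 (adjusted p = 0.0343). With the actin covariate 1 of the list was called higher, and under median centring 2 higher and 1 lower. None of 9 epithelial serine proteases was called, the lowest p-values being those of Htra1 (0.53 ± 0.16, adjusted p = 0.0671) and Prss23 (-0.37 ± 0.12, adjusted p = 0.0915). Of 16 inhibitors outside the serpin family, Timp2 rose (0.46 ± 0.12, adjusted p = 0.0374), and Timp3 (-0.70 ± 0.16, 0.0226) and the cathepsin inhibitor Cstb (-0.40 ± 0.11, 0.0461) fell, with a median of 0.10. Of these inhibitors 1 was called higher and 0 lower under quantile scaling, 0 higher and 6 lower under median centring, and 0 with the actin covariate. Across these lists and the collagen list, 12 of 88 tested genes were called, 6 in each direction, against 8.27% of all tested genes, 4.29% higher and 3.98% lower. Under quantile scaling the split was 6 higher and 2 lower, under median centring 2 higher and 18 lower, and with the actin covariate 1 higher and 3 lower. Of all 22519 tested probe sets, quantile scaling called 588 higher and 591 lower, median centring 406 and 3586, and the actin covariate 249 and 405.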

How the data were processed

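RNA of 8 gallbladder pools was hybridised to Affymetrix 430 2.0 mouse arrays, 1 pool per array. The deposited values are MAS 5.0 signal intensities on a linear scale, made by the authors with MAS5, per the submitters' processing notes. The series' design text names MAS 5.0 and, as an alternative to it, another Affymetrix program, without saying which array had which. No detection call or date of scanning was found in the sources, so no batch could be tested.

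Each array was scaled so that its mean without the top and bottom 2% was the same, and log2(signal + 8.2) was taken, 8.2 being the 10th percentile of all values. Of 45037 probe sets without the 64 controls, the brighter 22519, cut at the median of the mean log2 values, were tested with limma 3.58.1 in R 4.3.3 (lmFit and eBayes with trend, two-sided, Benjamini-Hochberg adjustment over all of them, threshold 0.05). Background, 46, is the 95th percentile of 27 bacterial control probe sets. Symbols come from the platform annotation and were updated through Entrez numbers for 34754 probe sets to the RefSeq table of GRCm38.p6. One symbol was given for 34958 probe sets, several for 932 and none for 9211. Of the 22 tested Serpin genes, 19 matched a RefSeq promoter window.

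Members and gene lists were chosen with earlier results of these data known. Every tested Serpin gene is named. Values in each pool are given for called genes and for the gene not called with the highest mean signal of each clade. Those of Serpina3i, Serpina6, Serpina12, Serpinf2, Serpinb1a, Serpinb2, Serpinb5 and Serpinb6c were added after their values were seen, as were the names of the 3 keratins. Of each pathway list, up to 4 called genes with the largest change are named or, with none called, the 2 with the lowest p. Other scalings, pseudocounts, filters, variance models, an actin covariate and leaving out each pool were tried. The hepatocyte covariate, centring over tested probe sets and leaving out the pools with the lowest hepatocyte level were added after the data were seen. The fit was tested on simulated data. The number of arrays limits the precision. The p-values set the difference between groups against the spread between pools, moderated over all tested probe sets, and not against the spread between mice.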

Additional observations from a re-analysis of the deposited data

Results flagged for a closer look

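Serpina10 had a signal of 792.6 in leptin 7, against 1211.8 to 1232.3 in the other leptin pools. On the scale log2(signal + 8.2), the gap to the nearest pool was 0.962 of the range of the group, above the 95% critical value of Dixon's test for 4 samples. It was the 1 such case among 44 groups of 4 pools examined, and chance alone gives about 1 in 20.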

How the results depend on the processing

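No paired analysis was possible because the leptin pools (5 to 8) and saline pools (1 to 4) share no replicate numbers. Against 1561 probe sets, 2 Serpin probe sets, 2 Serpin genes and 12 list genes called, median centring gave 3992, 8, 7 and 20. The actin covariate gave 654 probe sets, 2 Serpin probe sets, 1 Serpin gene and 4 list genes. The fit without the mean-variance trend gave 1 Serpin probe set and 1 gene, and the hepatocyte covariate 6 and 6. Leaving out 1 pool gave 878 to 1436 probe sets, 1 to 3 Serpin probe sets and 1 to 3 Serpin genes. All probe sets called were clearly fewer without leptin 6 (892), leptin 8 (994), saline 2 (878) or saline 4 (929). Serpinb6b was called in 22 of 23 alternatives and Serpina3n in 17 of 23, and neither turned its sign. Genes not called turned their sign as follows, and the cause was not tested. Under median centring Serpina10 was at -0.035, Serpina1c -0.17, Serpind1 -0.15, Serpinf1 -0.18 and Serpinh1 -0.076, and when centred over tested probe sets Serpina1c was at -0.0032 and Serpinf1 at -0.011. With the actin covariate Serpina10 was at -0.33, Serpina11 -0.46, Serpina1c -0.15, Serpinb6e 0.35, Serpind1 -0.37, Serpinf1 -0.46 and Serpinf2 -0.19. Quantile and loess scaling gave 0.019 and 0.15 for Serpina1b and 0.057 and 0.13 for Serpinc1. Array weights gave 0.011 for Serpinb6e, and leaving out leptin 7 with saline 1 gave -0.0081 for Serpina1c. Leaving out 1 pool gave ranges of -0.0043 to 0.38 for Serpina10, -0.15 to 0.072 for Serpina1b, -0.040 to 0.16 for Serpina1c, -0.12 to 0.087 for Serpinb6e, -0.36 to 0.19 for Serpinb8, -0.21 to 0.10 for Serpinc1, -0.076 to 0.21 for Serpind1 and -0.090 to 0.23 for Serpinf1. Dim probe sets near background limit what Serpina12, Serpinb8 and the clade I genes can show.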
